A study of Gallus gallus with 6 samples.

Results

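The genes described here lie on the chicken sex chromosome Z and were counted at a mean of at least 25 CPM (a gene's count per 1000000 counts of the library) across 6 RNA libraries of dorsal neural folds. They were chosen by chromosome and by mean CPM over all 6 libraries alone, and 248 of the 1245 Z-linked genes in the table, out of 24356 genes in all, met that minimum. The 2 members nearest above it, from 21927561 to 21950303 and from 26326425 to 26436050, had 25.3 CPM, and the 2 Z-linked genes nearest below it, from 81496699 to 81572966 and from 52053817 to 52075093, had 24.96 CPM. Embryos of the Leghorn White strain received a TGFB1 morpholino on one side and, as the control, the GTBlue-Control morpholino on the opposite side, each at 1 mM, and were cultured to Hamburger-Hamilton stage 9. The dorsal neural folds of both sides of an embryo were dissected apart and sequenced as poly(A) RNA, giving 3 control libraries, which the labels call wild type, and 3 TGFB1 knockdown libraries. Both sides of every embryo thus carried a morpholino, and no uninjected tissue was analysed here. Morpholinos are synthetic antisense oligonucleotides used to block translation or splicing of a target RNA.

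Birds have male ZZ and female ZW sexes, so that most Z-linked genes are present as a pair of copies in males and as a single copy in females. Unlike mammals, which silence an X chromosome in females, chickens are not known to switch off a whole Z chromosome in males, and the excess of Z-linked RNA in males is made up for only in part and gene by gene. The chicken Z also carries the male hypermethylated region, a locus transcribed into noncoding RNA in females and methylated and silent in males. The identifiers of the files could not be paired with gene symbols, so members are given by their position in galGal6 and by their order along the chromosome, from gene 1 to gene 248. For the same reason the knockdown of TGFB1 and the marker genes of neural fold cells were not analysed here.

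Total counts ran from 5350165 to 12256492 per library. The labels give no sex, but W-linked genes held 24.0 and 18.3 CPM in the control and TGFB1 morpholino libraries of embryo 1 and 2346 to 2756 CPM in the 4 libraries of embryos 2 and 3. Embryo 1 thus had almost no W-linked RNA, as a ZZ male would, and embryos 2 and 3 had it at a like level, as ZW females would. With a single embryo of the first kind, a difference between the sexes cannot be told apart from a difference between embryo 1 and the others. Mitochondrial genes took 11.9% of the counts in the TGFB1 morpholino library of embryo 1 and 3.595% to 7.20% in the other 5, so results are also given for the control side alone. In these bulk samples fewer cells of a type and less RNA per cell cannot be told apart.

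Z-linked genes were higher in embryo 1 than in embryos 2 and 3, by less than the 2-fold difference in gene copies. The median ratio of the mean CPM of embryo 1 to that of embryos 2 and 3 was 1.43 (log2 0.52), with quartiles of 1.23 and 1.71, against 0.96 (log2 -0.059) for the 6355 autosomal genes at the same minimum. Of the 248 members 235 (94.8%) had a ratio above 1, against 40.0% of the autosomal genes. Between embryos 2 and 3 the Z-linked members had a median log2 ratio of -0.031 and the autosomal genes one of -0.049, so no such excess was seen between them. Among chromosomes with at least 20 genes at the minimum, Z stood highest, and the autosomal medians ran from -0.12 on chromosome 2 to 0.24 on chromosome 33.

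The excess was of like size on both sides and against either other embryo. The median log2 ratio was 0.54 for the control sides and 0.48 for the TGFB1 morpholino sides, with autosomal medians of -0.040 and -0.082. Against embryo 2 it was 0.56 and against embryo 3 it was 0.50. Comparing single libraries of the same side, the medians were 0.56 and 0.57 for the controls and 0.50 and 0.48 for the TGFB1 morpholino libraries. The Z-linked members together took 3.30% and 3.17% of the scaled counts in embryo 1 and between 2.13% and 2.33% in the other 4 libraries, which do not overlap with the former.

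Set against autosomal levels, and per kilobase of exon, the median member stood at 29.5 CPM per kb on the control side of embryo 1 against 26.4 for autosomal genes at the same minimum, a ratio of 1.12. The ratio was 1.06 on its TGFB1 morpholino side and 0.725 to 0.756 in the libraries of embryos 2 and 3. The median Z-linked level thus lay above the autosomal one in embryo 1 and below it in embryos 2 and 3. These are levels of genes chosen by the same minimum mean over all 6 libraries in both sets. For the members that mean includes the higher level of embryo 1, so the choice does not bear alike on the sets.

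The ratios varied widely from gene to gene. They were below 1 in 13 members, from 1 to 1.25 in 54, from 1.25 to 1.5 in 67, from 1.5 to 1.75 in 58, from 1.75 to 2 in 40, and at 2 or more in 16. The standard deviation of the log2 ratio was 0.35 among members and 0.27 among autosomal genes. Across the 248 members the ratio on the control side and that on the TGFB1 morpholino side, which come from different libraries of the same embryos, had a Pearson correlation of 0.603, against 0.296 over the autosomal genes. Members with a high ratio on one side thus tended to have a high ratio on the other. Of the 248 members, 211 were higher in embryo 1 on both sides and 5 lower on both. Of the 6355 autosomal genes at the same minimum, 1453 were higher on both and 2510 lower on both.

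**Figure D1:**
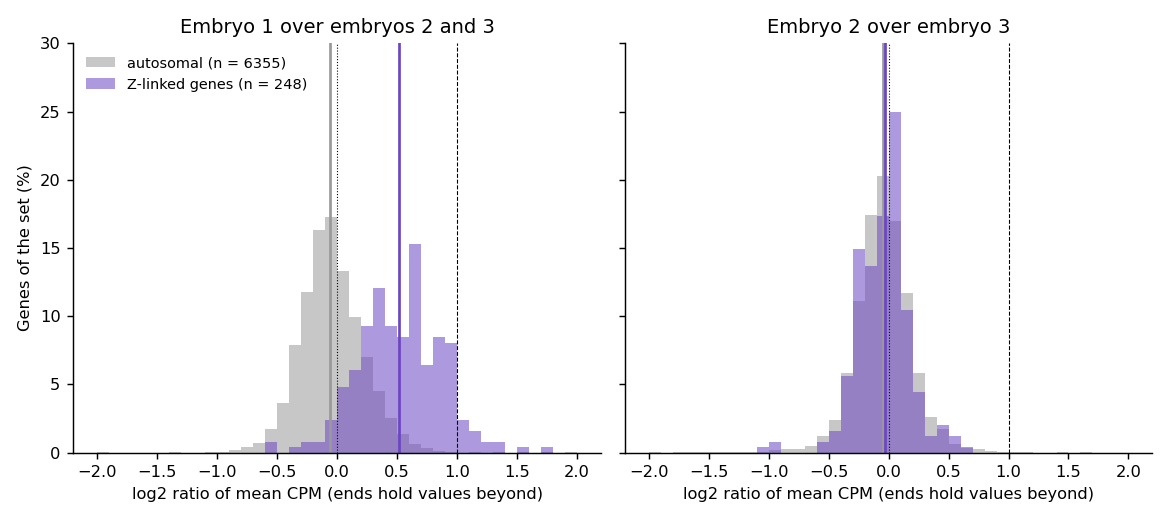
Distribution of log2 ratios of mean CPM for 248 Z-linked genes and 6355 autosomal genes that reached 25 CPM on average, as percent of each set, for embryo 1 over embryos 2 and 3 (left) and for embryo 2 over embryo 3 (right). Solid vertical lines are the medians, the dotted line marks equal levels and the dashed line a 2-fold ratio; the Z-linked median lies at 0.52 on the left and at -0.031 on the right.

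In 164 of the 248 members both libraries of embryo 1 lay above all 4 libraries of embryos 2 and 3, which is 66.1% against 10.1% of the 14337 genes tested for a difference between the embryos and 6.04% of the autosomal genes at the same minimum. In 3 members both lay below all 4 (1.21%), against 8.89% of the genes tested and 13.8% of the autosomal genes at the same minimum. The quasi-likelihood test of edgeR, run on counts summed over both sides of each embryo, called 65 members higher in embryo 1 (26.2%) at a false discovery rate of 0.05, where 0.914% of all genes tested were called higher. It called 0 members lower (3 at an unadjusted p under 0.05), where 0.642% of all genes tested were called lower. The DESeq2 Wald test and limma-voom also called more members higher than lower. Of the 6355 autosomal genes at the same minimum, edgeR called 18 higher and 45 lower. The test sets 1 embryo against 2 and assumes that embryo 1 varies as the others do. On simulated counts its false calls were a larger share of its calls than the false discovery rate set. The number of members called moved with the setting, and so did the share of all genes called, while hardly any members were called lower under any setting tried. The counts of members called and of members above all 4 libraries include genes that met the minimum only through embryo 1. They are thus not independent of the choice of members.

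The member with the highest ratio was gene 26, on the minus strand from 8563543 to 8574697, with 14 exons. It had 68.5 and 71.8 CPM on the control and TGFB1 morpholino sides of embryo 1, 25.1 and 21.9 CPM in embryo 2 and 23.7 and 14.9 CPM in embryo 3. Its ratio was 3.28, above the difference in gene copies, and its fitted change by edgeR was 1.70 on the log2 scale. Gene 38, on the minus strand from 9297716 to 9298745, had 48.6 and 71.8 CPM in embryo 1, 19.0 and 22.4 CPM in embryo 2 and 18.5 and 24.0 CPM in embryo 3, a ratio of 2.87. The next ratios belonged to gene 197 (2.51), from 61440581 to 61443244 and overlapping another gene of its strand, to gene 157 (2.46), from 44911227 to 44917010, and to gene 30 (2.38), from 9096779 to 9106881. In all 5 the libraries of embryo 1 lay above the other 4, which follows largely from their choice by this ratio. Genes 26, 38 and 30 had means of 21.4, 21.0 and 24.8 CPM in embryos 2 and 3. They thus met the minimum of 25 CPM only through embryo 1. How many other members did so was not counted, and the counts over all members include any such genes. Over members from 50 CPM the median log2 ratio was 0.51.

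The 6 most abundant members had ratios between 1.27 and 2.096. Gene 123, on the minus strand from 33736390 to 33740880, led with 2276 and 2183 CPM in embryo 1, 1200 and 1348 CPM in embryo 2 and 1060 and 1433 CPM in embryo 3. Embryo 1 lay above the others on both sides, with a ratio of 1.77 (log2 fold change 0.77, SE 0.14, adjusted p = 0.0053 by edgeR). Gene 16, from 2151248 to 2159334, had a ratio of 1.78, gene 201, from 63563409 to 63565254, one of 2.096, gene 25, from 8540925 to 8562119, one of 1.56 and gene 199, from 62855240 to 62961099, one of 1.57. All of these passed the same test. Gene 215, on the minus strand from 66668700 to 66692579 with 25 exons, did not, with a ratio of 1.27 (adjusted p = 0.292 by edgeR). It had 788.2 and 432.7 CPM in embryo 1, 473.5 and 402.1 CPM in embryo 2 and 485.5 and 558.1 CPM in embryo 3, so that its excess was found on the control side alone.

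Of the members, 4 were lower in embryo 1 in each comparison of libraries of the same side, and 193 were higher in each. In the single comparisons 85.1% to 94.8% of members were higher in embryo 1. Among autosomal genes at the same minimum 39.8% to 45.1% were, and their share over all comparisons together is not given. Gene 107, on the minus strand from 25268534 to 25323157, had 39.0 and 31.6 CPM in embryo 1, 41.1 and 45.9 CPM in embryo 2 and 47.3 and 78.9 CPM in embryo 3. Its neighbour gene 108, on the same strand from 25324362 to 25392656, had 198.6 and 133.3 CPM in embryo 1, 214.5 and 225.0 CPM in embryo 2 and 234.2 and 271.4 CPM in embryo 3. In both the libraries of embryo 1 lay below the other 4, with ratios of 0.662 and 0.703, and the distance was small among the control sides (log2 -0.18 in each) and larger among the TGFB1 morpholino sides (-0.98 and -0.90). Neither passed the edgeR test over both sides. Gene 107 overlaps gene 106 on the opposite strand, which had a ratio of 1.62, so that the level of either is uncertain. Genes 54 and 239, from 13647830 to 13665258 and from 73305265 to 73341429, had ratios of 0.775 and 0.831.

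**Figure D2:**
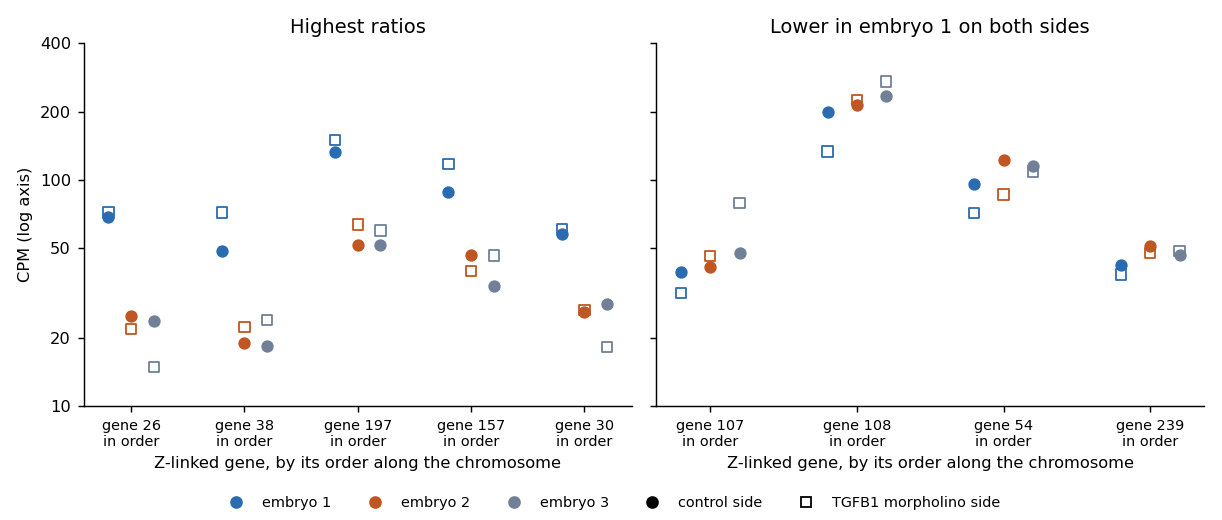
CPM on a log axis in each of the 6 libraries for the 5 Z-linked genes with the highest ratio (left) and the 4 that were lower in embryo 1 in every comparison of single libraries of the same side (right), labelled by their order along the chromosome. Filled circles are control sides and open squares TGFB1 morpholino sides; in genes 26, 38, 197, 157 and 30 both libraries of embryo 1 lie above the other 4, and in genes 107, 108 and 239 both lie below them.

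Along the chromosome the median ratio stayed above 1 in every stretch of 10 Mb, at different heights, while single members lay below 1 in some stretches. The median log2 ratio was 0.66 over the 41 members in the first 10 Mb, 0.53 from 10 to 20 Mb, 0.38 from 20 to 30 Mb and 0.36 from 30 to 40 Mb. It was 0.46 from 40 to 50 Mb, 0.51 from 50 to 60 Mb, 0.71 over the 27 members from 60 to 70 Mb, 0.36 from 70 to 80 Mb and 0.52 over the last 6 members. The first and the seventh stretch were the highest both among the control sides (0.71 and 0.78) and among the TGFB1 morpholino sides (0.71 and 0.76). The last 2 stretches differed most with the embryo compared, at 0.28 against embryo 2 and 0.49 against embryo 3 from 70 to 80 Mb, and at 0.63 and 0.41 beyond.

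**Figure D3:**
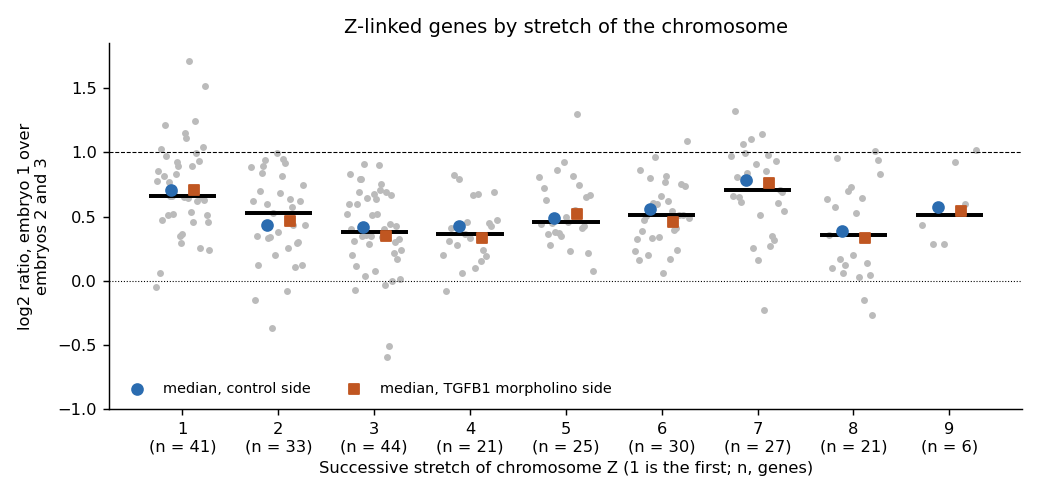
log2 ratio of embryo 1 to embryos 2 and 3 for Z-linked genes in 9 successive stretches of chromosome Z of 10 Mb each. Grey points are genes, black bars their medians (0.66 in the first stretch and 0.36 in the fourth and eighth), circles the medians on the control side and squares those on the TGFB1 morpholino side; the dotted line marks equal levels and the dashed line a 2-fold ratio.

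The lowest and highest parts were picked out after the values were seen and are described without a test. From 25036411 to 31971222 lay 16 members with a median ratio of 1.15, of which 11 were under 1.25-fold and 5 under 1. From 70755485 to 73341429 lay 18 members with a median of 1.14, of which 10 were under 1.25-fold. The medians on the control and TGFB1 morpholino sides were log2 0.16 and 0.23 in the first of these parts and 0.31 and 0.26 in the second. The 214 members elsewhere had a median log2 ratio of 0.59, and 46 of them were under 1.25-fold. High ratios stood among the low ones, for gene 110, from 25835638 to 25933937, had a ratio of 1.59 and gene 226, from 70935594 to 70942308, one of 1.94.

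At the other end, the 17 members from 7909086 to 9298745 had a median ratio of 1.86. They held 6 of the 16 members at 2-fold or more, among them genes 26, 38 and 30, which met the minimum only through embryo 1. Over the 17 members the median log2 ratio was 0.73 for the control sides and 1.07 for the others. In 14 of the 17 both libraries of embryo 1 lay above the other 4. From 61202799 to 64385471 a further 14 members had a median of 1.77, with 12 above the other 4 libraries. Over all members this share was 66.1%, and over all genes tested for the embryos 10.1%. Both parts were picked by their high ratios, from which such counts largely follow.

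Medians over 9 neighbouring members ran from 0.14 to 1.00 in log2 along Z. On the autosomes 6099 such windows ran from -0.39 to 0.45, and 0 of them reached the median of all Z-linked members. The order of ratios among neighbours was weak, with a Spearman correlation of 0.157 between adjacent members on Z and of 0.16 between adjacent autosomal genes. Between the 2.5 and 97.5 percentiles the windows lay from 0.20 to 0.89 on Z and from -0.28 to 0.28 on the autosomes.

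**Figure D4:**
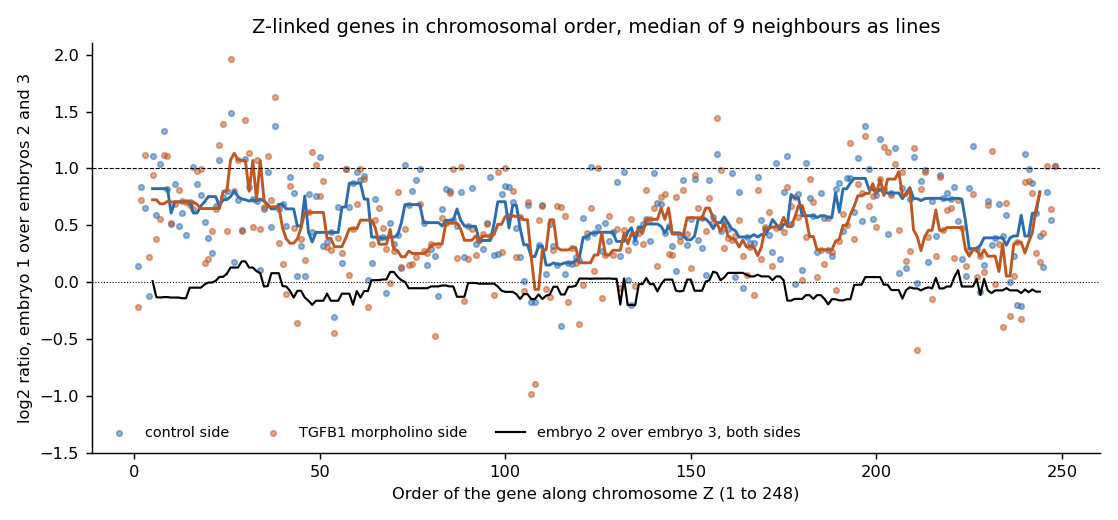
log2 ratio of embryo 1 to embryos 2 and 3 for 248 Z-linked genes in chromosomal order, as points for the control and the TGFB1 morpholino side, with medians over 9 neighbours as lines. The black line is the same median for embryo 2 over embryo 3 and stays between -0.20 and 0.18, while both coloured lines run above it for most of the chromosome; the dotted line marks equal levels and the dashed line a 2-fold ratio.

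The ratio was higher in short genes and varied little with mean CPM. The 82 members with the shortest exon sequence, 435 to 2347 bases, had a median log2 ratio of 0.70, and the 83 longest, from 3737 bases up, one of 0.43. Autosomal genes within the same bounds had medians of -0.007 and -0.094, so that the Z-linked excess over autosomes was 0.71 in the short genes and 0.52 in the long ones. By gene span the excess was 0.71 in the narrowest members, up to 15.1 kb, 0.52 in the middle ones and 0.58 in the widest. By mean CPM it stayed between 0.55 and 0.58 in all 3 levels. By CPM per kb of exon, which falls with exon length, it was 0.47 in the members of lowest and 0.74 in those of highest level. Members on the plus and minus strands, 124 each, had medians of 0.57 and 0.51, and the 194 members that overlap no other gene had one of 0.55.

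Z-linked genes under the minimum showed the excess as well. Over the 195 with 5 to 25 CPM and a count in embryo 1 the median log2 ratio was 0.63, against 0.10 for autosomal genes in that range. The gene with no count in embryo 1, described below, has no such ratio and is left out there. The 382 that passed the filter on low counts had a median log2 fold change of 0.61 for embryo 1. One of these, on the minus strand from 27317307 to 27383989 with 6 exons, had no count in either library of embryo 1. It had 115 and 134 counts on the control and TGFB1 morpholino sides of embryo 2 and 110 and 155 in embryo 3, or 13.5, 13.8, 20.4 and 20.2 CPM. Its level was at least 117-fold lower in embryo 1, set against a floor of 3 counts over both of that embryo's libraries (adjusted p = 1.17e-08 by edgeR). It lies within the low part that begins at 25036411 and overlaps no other annotated gene. Among all Z-linked genes it was the only one with no count in embryo 1 and at least 10 counts in each other library, against 1 autosomal gene and 11 W-linked ones, and whether reads of a W-linked copy were counted there was not tested.

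A further 2 Z-linked genes under the minimum were high in embryo 2 alone. The gene from 43138485 to 43140761 had 69 and 100 counts in embryo 2, 0 and 1 in embryo 3 and none in embryo 1. That from 70410679 to 70412769 had 71 and 77 counts in embryo 2, 6 and 7 in embryo 3 and 1 and 2 in embryo 1. Both have a single exon.

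Between the sides of an embryo few Z-linked genes differed. With the embryo as a block, edgeR called 10 of the 248 members higher on the TGFB1 morpholino side (4.03%), where 7.15% of all 12736 genes tested were called higher. It called 15 lower (6.05%), where 8.81% of all genes tested were. The shares among autosomal genes at the same minimum were 6.14% and 9.82%. The median log2 fold change was 0.024 over the members (-0.035 without embryo 3), -0.017 over those autosomal genes and 0.003 over all genes tested. In embryos 1, 2 and 3 the median difference between the sides was -0.040, -0.036 and 0.12 for the members and -0.054, -0.015 and 0.035 for the autosomal genes. The median Z-linked level thus moved little between the sides, and the shares called were near the background or under it.

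All 25 moved the same way in the 3 embryos, which follows largely from a test within embryos. Without the replicate block 1 member was called higher and 2 lower. Without embryo 2 the counts were 2 and 7, and without embryo 3 there were 5 higher. The share of all genes called is not given for these settings, so these counts are not a result about Z-linked genes.

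The largest increase belonged to ENSGALG00000014711.6, gene 66, with 7 exons on the minus strand from 16804844 to 16861020. It had 107.9, 94.6 and 70.4 CPM on the control sides of embryos 1, 2 and 3 and 295.0, 235.8 and 139.5 CPM on the TGFB1 morpholino sides. The groups do not overlap, with means of 91.0 ± 19.0 and 223.4 ± 78.5 CPM (SD, n = 3), and the log2 fold change was 1.26 (SE 0.14, adjusted p = 9.56e-05 by edgeR). Another gene lies over it on the opposite strand, which makes its level uncertain. ENSGALG00000002523.6, gene 33, with 9 exons on the minus strand from 9167587 to 9172144, followed with 61.4, 48.8 and 26.1 CPM on the control sides and 110.3, 59.0 and 46.1 CPM on the others. There the groups overlap, and each embryo rose (log2 fold change 0.64, SE 0.15, adjusted p = 0.0129 by edgeR). Gene 142, from 40107242 to 40111098, had 62.9, 39.8 and 38.6 CPM on the control sides and 96.2, 60.4 and 54.3 CPM on the others, a log2 fold change of 0.57. Genes 153 and 22, from 43598380 to 43681200 and from 7909086 to 7911236, rose by 0.57 and 0.53, and the other 5 increases were from 0.42 upwards. Genes 142, 153 and 22 did not pass without embryo 2, and gene 22 did not without embryo 3 either.

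The largest decrease belonged to ENSGALG00000014678.5, gene 190, with 11 exons on the plus strand from 57470318 to 57523525. It had 83.8, 32.99 and 58.6 CPM on the control sides of embryos 1, 2 and 3 and 20.6, 9.29 and 22.9 CPM on the TGFB1 morpholino sides. All 3 control libraries lay above all 3 others, and the log2 fold change was -1.74 (SE 0.17, adjusted p = 3.79e-05 by edgeR). ENSGALG00000015451.6, gene 183, with 13 exons on the plus strand from 55574822 to 55632691, had 350.7, 203.0 and 264.8 CPM on the control sides and 191.0, 124.3 and 110.1 CPM on the others. Again the groups do not overlap (log2 fold change -0.95, SE 0.14, adjusted p = 8.81e-04 by edgeR), and it overlaps a gene on the same strand. Gene 14, from 2043192 to 2082847, fell by 0.94 and gene 100, a gene of a single exon from 24273701 to 24275470, fell by 0.86 on the log2 scale.

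Gene 190 lies beside others that fell. Of 9 tested Z-linked genes between 56896189 and 57671044, 5 fell and 0 rose, where 8.81% and 7.15% of all genes tested did, but the part was picked out after the values were seen. Gene 188, from 56896189 to 56948360, had a log2 fold change of -0.41 (adjusted p = 0.0493 by edgeR) and gene 189, from 57223733 to 57284131, one of -0.78 (adjusted p = 0.0117). Between gene 189 and gene 190 lie 2 genes under the minimum, which fell by 2.09 and 1.80 on the log2 scale. The first of these, from 57311687 to 57318534, had 20.04, 5.28 and 11.1 CPM on the control sides of embryos 1, 2 and 3 and 5.02, 1.24 and 2.35 CPM on the others. The second, from 57335212 to 57363032, had 24.6, 9.63 and 21.9 CPM and 8.63, 2.48 and 5.36 CPM. On the control side embryo 1 was highest and embryo 2 lowest in every tested gene of the part, whether it was called or not.

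Both the genes that rose and those that fell had median ratios above 1 between embryo 1 and the others. The 10 that rose had ratios of embryo 1 to the others between 0.35 and 0.96 in log2, with a median of 0.67, and 3 of them were called higher in embryo 1, near the 26.2% of all members. The 15 that fell had ratios between -0.23 and 0.90, with a median of 0.27, and 2 of them were called. The stretch from 50 to 60 Mb, with 30 members, held 5 of the 15 that fell and none that rose. The median over its members was -0.27. Of all genes tested, 8.81% were called lower and 7.15% higher. This stretch contains the part from 56896189 to 57671044, which was picked out after the values were seen. Its count of falls is thus not a separate result, and it was not tested.

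**Figure D5:**
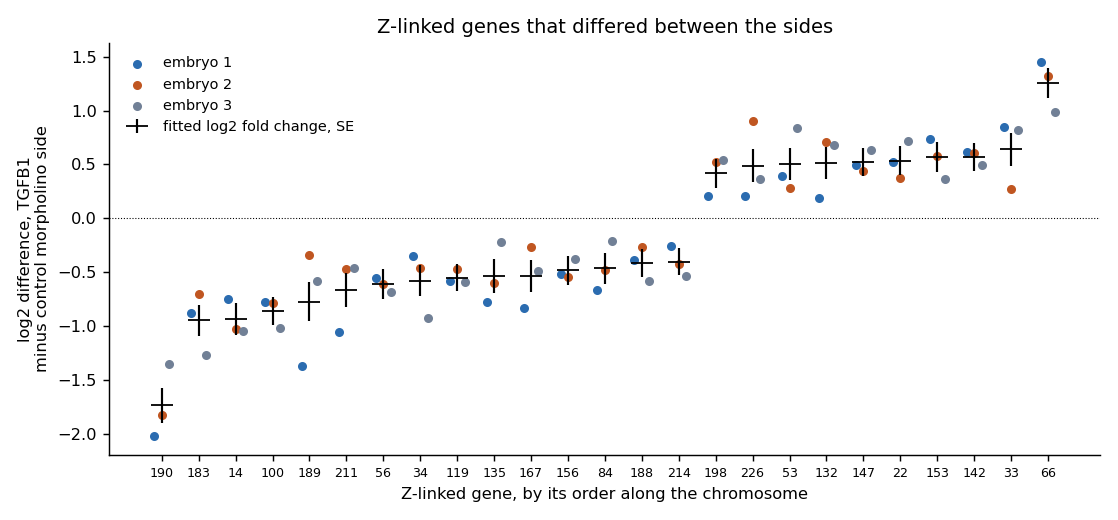
log2 difference of the TGFB1 from the control side for the 25 Z-linked genes past the false discovery rate, ordered by fold change and labelled by their order along the chromosome. Points are the 3 embryos and black marks the fitted log2 fold change with its SE; 15 genes lie below 0 and 10 above, and gene 190 has the largest decrease (-1.74) and gene 66 the largest increase (1.26).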

How the data were processed

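The deposited table holds read counts per gene as the authors made them, with exon positions. The submitters' processing notes name cutadapt, HISAT2, featureCounts and galGal6; the sources used here give no versions, annotation release, strand or multi-mapping settings, so genes that overlap or have near-identical copies (W-linked ones included) are uncertain. Of 24356 identifiers 0 matched the RefSeq table of GRCg7b, so no symbols, gene lists or sequences are given. Members and lists were chosen with earlier results of these data known.

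Groups came from the genotype label and embryo numbers from the titles. Both sides come from the same embryo per the labels' protocols, and same-numbered libraries deviated together (correlations of 0.492, 0.52 and 0.363 over all genes, and of 0.258, 0.457 and 0.29 over autosomal genes). Printed CPM and ratios use TMM-scaled totals (factors 0.973 to 1.01); membership uses unscaled totals. Counts were tested in R 4.3.3 with edgeR 4.0.16 (filterByExpr, TMM, quasi-likelihood F test, Benjamini-Hochberg over all genes tested), with the embryo as a block for sides (12736 genes), and on sums of both sides for embryo 1 against embryos 2 and 3 (14337 genes, 1 residual degree of freedom). Limma 3.58.1 and DESeq2 1.42.0 were alternatives. SEs are the log2 fold change over the root of F. On counts simulated for the sides, 43% of 1.5-fold and 100% of 2-fold changes were recovered over 12561 genes. For the embryos 25% and 90% were recovered over 14048. With 100 changed genes of each size, false calls among unchanged genes numbered 7 for the sides and 14 for the embryos. For the embryos that is a larger share of the calls than the false discovery rate of 0.05.

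Named were the 6 members with the highest mean CPM, the 5 with the highest and up to 5 with the lowest ratio in one direction in all same-side comparisons, the 5 largest increases and decreases between sides with one direction in all 3 embryos, and those beside the minimum. For lack of symbols only 2 identifiers per direction are printed. Other positions were chosen after their values were seen.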

Additional observations from a re-analysis of the deposited data

Results flagged for a closer look

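Of the named members 5 moved between the sides in one direction in embryo 1 and in the other in embryos 2 and 3; the difference was not tested. The log2 difference of the TGFB1 morpholino side from the control side was -0.060 in embryo 1 for gene 123 (0.17 and 0.44 in embryos 2 and 3) and -0.21 for gene 16 (0.062 and 0.26). For gene 26 it was 0.068 in embryo 1 (-0.20 and -0.67 in the others). For the neighbouring genes 107 and 108 it was -0.31 (0.16 and 0.74) and -0.58 (0.069 and 0.21). None of the 5 passed the test between the sides over all embryos. Among all 248 members 15 rose in embryo 1 and fell in both others, and 28 fell in embryo 1 and rose in both others. The shares among autosomal genes are not given, so these counts are not a result about Z-linked genes.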

How the results depend on the processing

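Without the replicate block 1 member was higher and 2 were lower on the TGFB1 morpholino side, against 10 and 15 with it. Leaving out an embryo or the TGFB1 morpholino library of embryo 1 gave 2 to 15 higher and 7 to 19 lower, with the fewest without embryo 2. The share of all genes called is not given for any of these side settings, so the changes are not a result about Z-linked genes. Other sets of members were counted in the unchanged fit, where 7.15% of all genes tested were called higher and 8.81% lower. Of 374 members from 10 CPM 17 were higher, and of 155 members from 50 CPM 8 were lower. Of 194 members overlapping no other gene, an alternative added after the data were seen, 5 were higher (2.58%). These counts differ with the number of members. For embryo 1 against the others, 65 members higher became 29 on the control side alone, 42 with TMM on autosomal genes, 43 with DESeq2 and 101 with no filter; 0 lower became 2 on the TGFB1 morpholino side alone and 1 with members from 10 CPM. The share of all genes called moved between these settings as well. For genes higher in embryo 1 it was 0.914% at first, 0.324% on the control side alone and 0.502% with TMM on autosomal genes. With DESeq2 it was 0.328%, and with no filter 1.47%. On the TGFB1 morpholino side alone 65 members were again higher, where 2.11% of all genes tested were. The share of all genes called lower was 2.57% on that side alone, against 0.642% at first and with members from 10 CPM. With 1 embryo against 1 no such count could be had. The median log2 ratio of 0.52 was 0.57 with totals without mitochondrial genes, 0.58 with members from 10 CPM, and 0.50 to 0.56 without embryo 2 or 3. Its distance from the autosomal median was 0.58 at first and 0.57 with those totals. Stretch medians moved as follows. On the control side alone they were 0.71 (first 10 Mb), 0.44 (10 to 20 Mb) and 0.78 (60 to 70 Mb), and on the TGFB1 morpholino side alone 0.71 (first 10 Mb) and 0.52 (40 to 50 Mb). Without embryo 2 or 3 they lay at 0.39 to 0.46 (20 to 30 Mb), 0.28 to 0.49 (70 to 80 Mb) and 0.41 to 0.63 (80 to 90 Mb). With totals without mitochondrial genes they were 0.73 (first 10 Mb), 0.45 (20 to 30 Mb), 0.54 (40 to 50 Mb) and 0.43 (70 to 80 Mb). Stretches of 5 Mb ranged from 0.19 (70 to 75 Mb) to 0.94 (75 to 80 Mb, 3 members). The cause of these changes was not tested. No stretch median or named side difference changed direction under the alternatives run for it. The median side difference of the members, 0.024 in log2, was -0.035 without embryo 3 and 0.005 to 0.054 under the other alternatives. The ratio of gene 215 was 0.72 in log2 on the control side and -0.15 on the other. Of the named side differences, those of ENSGALG00000014711.6, ENSGALG00000014678.5 and ENSGALG00000015451.6 passed in every alternative. At the depth and with the embryos at hand, 1.5-fold differences in embryo 1 were mostly missed in simulation, so a member not called there is not shown to be equal.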
